A study of Mus musculus with 3 samples.

Results

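Dividing stromal and myoid cells of the neonatal mouse testis are described here, chosen by summed unique molecular identifiers (UMIs) per cell. A cell entered with at least 5 UMIs of the matrix genes Col1a1, Col1a2, Col3a1 and Dcn, at most 2 of the Sertoli genes Amh, Sox9, Cldn11 and Inha, at most 5 of the steroid enzymes Cyp11a1, Cyp17a1 and Hsd3b1, and at most 1 of the germ cell genes Ddx4 and Dazl. It also needed at least 4 UMIs of the mitotic genes Ube2c, Cenpf, Plk1 and Cenpa, or at least 3 of the S-phase genes Rrm2, Tk1, Clspn and Tyms. Of 14422 cells, 6743 met the mesenchymal limits, and 1260 of these were cycling: 331 in Cdk2-Y15S, 480 in Cdk2-HET and 449 in Cdk2-WT. A sum of the smooth muscle genes Acta2, Myh11 and Tagln of at least 8 put 548 of the cycling cells in the myoid class, a sum of at most 4 put 667 in the stromal class, and 45 lay between. The 705 cells that met the mitotic sum are called mitotic, and the 555 that met the S-phase sum alone are called S-phase cells.

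The study asks how the kinase CDK2 bears on male germ cells, and the libraries hold whole testis. The Cdk2-Y15S library came from males homozygous for the YS allele, in which serine replaces a tyrosine of CDK2 whose phosphorylation restrains the kinase. The Cdk2-HET library came from heterozygotes and the Cdk2-WT library from Cdk2+/+ males. All 3 genotypes shared a mixed background of 2 strains, B6(Cg)-Tyrc-2J/J and FVB/NJ, came from crosses of heterozygotes, and were untreated males at postnatal day 3, with 3.5 days given for the dissection. The allele is carried by every cell of the animal, not by the germ line alone. The labels do not say how many testes went into a library, and there is 1 library per genotype, so no difference between genotypes has a replicate check or a test, and any difference may belong to the library.

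Peritubular myoid cells are flat contractile cells that ring the seminiferous cords, and interstitial stromal cells fill the space between them. Both populations are still growing after birth. In a dividing cell, the helicase genes Mcm2 to Mcm7 and the loading factors Cdc6 and Cdt1 are made before DNA synthesis, largely under E2F factors, and CDK2 acts with cyclin E and then cyclin A. Genes of G2 and mitosis come later under the MuvB complex with B-Myb and FoxM1. Their promoters often carry a CCAAT box, bound by NF-Y, and a cell cycle homology region, bound by MuvB.

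The promoters of all 8 cycle genes that chose the cells are shown, so that their motifs can be compared. Each window is from RefSeq on GRCm38.p6 and runs from 250 bases before to 50 bases after the start of the gene, written 5′ to 3′ along the gene. Capitals mark CCAAT, the homology region TTTGAA and the E2F motif TTTNNCGC, each on either strand, and neighbouring matches may overlap. The first 4 genes act in mitosis: Ube2c is the ubiquitin-conjugating enzyme of the anaphase-promoting complex, Cenpf and Cenpa are centromere proteins, and Plk1 is a mitotic kinase. The others act in S phase: Clspn is the checkpoint adaptor claspin, Tyms is thymidylate synthase, Rrm2 is the small subunit of ribonucleotide reductase and Tk1 is thymidine kinase.
Ube2c (chr2:164769679-164769978, plus strand): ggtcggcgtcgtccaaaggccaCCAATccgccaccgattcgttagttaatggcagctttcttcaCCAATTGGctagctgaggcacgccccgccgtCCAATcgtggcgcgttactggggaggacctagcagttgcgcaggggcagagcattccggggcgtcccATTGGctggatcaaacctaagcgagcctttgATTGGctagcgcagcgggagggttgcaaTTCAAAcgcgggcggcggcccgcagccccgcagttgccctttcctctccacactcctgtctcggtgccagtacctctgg
Cenpf (chr1:189688037-189688336, minus strand): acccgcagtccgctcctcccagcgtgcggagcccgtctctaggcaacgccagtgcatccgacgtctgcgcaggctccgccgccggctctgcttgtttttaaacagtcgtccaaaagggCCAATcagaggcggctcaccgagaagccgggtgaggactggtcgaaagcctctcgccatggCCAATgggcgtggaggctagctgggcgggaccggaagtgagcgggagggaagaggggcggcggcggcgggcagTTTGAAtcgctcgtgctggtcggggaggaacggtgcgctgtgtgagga
Plk1 (chr7:122159185-122159484, plus strand): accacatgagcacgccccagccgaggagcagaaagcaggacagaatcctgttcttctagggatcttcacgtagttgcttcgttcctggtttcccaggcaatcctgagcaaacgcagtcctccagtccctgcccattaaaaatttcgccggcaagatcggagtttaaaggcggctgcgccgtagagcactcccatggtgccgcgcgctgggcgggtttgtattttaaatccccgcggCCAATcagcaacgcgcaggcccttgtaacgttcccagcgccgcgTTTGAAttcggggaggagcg
Cenpa (chr5:30666636-30666935, plus strand): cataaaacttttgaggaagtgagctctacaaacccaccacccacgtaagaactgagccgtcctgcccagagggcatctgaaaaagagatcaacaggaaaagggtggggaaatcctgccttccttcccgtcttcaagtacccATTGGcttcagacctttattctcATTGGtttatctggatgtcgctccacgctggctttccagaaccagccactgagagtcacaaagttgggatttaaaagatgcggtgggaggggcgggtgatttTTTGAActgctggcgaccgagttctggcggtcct
Clspn (chr4:126556730-126557029, plus strand): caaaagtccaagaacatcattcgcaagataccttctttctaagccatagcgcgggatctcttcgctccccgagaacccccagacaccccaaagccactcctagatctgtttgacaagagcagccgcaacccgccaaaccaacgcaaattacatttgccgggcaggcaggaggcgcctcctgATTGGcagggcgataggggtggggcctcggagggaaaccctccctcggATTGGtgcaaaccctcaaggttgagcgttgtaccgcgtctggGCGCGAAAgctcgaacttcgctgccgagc
Tyms (chr5:30073576-30073875, minus strand): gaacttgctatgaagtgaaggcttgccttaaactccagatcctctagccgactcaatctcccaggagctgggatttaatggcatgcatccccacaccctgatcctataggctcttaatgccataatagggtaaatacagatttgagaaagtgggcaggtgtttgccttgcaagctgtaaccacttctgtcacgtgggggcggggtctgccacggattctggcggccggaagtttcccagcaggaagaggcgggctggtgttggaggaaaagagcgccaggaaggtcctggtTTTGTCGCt
Rrm2 (chr12:24708004-24708303, plus strand): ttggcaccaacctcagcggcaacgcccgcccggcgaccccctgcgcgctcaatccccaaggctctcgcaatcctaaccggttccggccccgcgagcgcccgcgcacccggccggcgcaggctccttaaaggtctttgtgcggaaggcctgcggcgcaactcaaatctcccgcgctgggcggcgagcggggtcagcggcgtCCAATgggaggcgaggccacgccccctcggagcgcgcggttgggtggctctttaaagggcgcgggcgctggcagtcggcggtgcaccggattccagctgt
Tk1 (chr11:117825965-117826264, minus strand): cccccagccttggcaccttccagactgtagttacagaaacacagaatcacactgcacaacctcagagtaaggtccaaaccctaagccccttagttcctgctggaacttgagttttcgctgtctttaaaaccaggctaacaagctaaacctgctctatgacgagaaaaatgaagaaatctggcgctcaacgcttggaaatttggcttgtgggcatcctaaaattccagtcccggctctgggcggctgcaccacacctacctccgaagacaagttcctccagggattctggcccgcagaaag

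All 4 mitotic windows held both CCAAT and TTTGAA, and none of the 4 held the E2F letters. Of the 4 S-phase genes, Clspn and Tyms held the E2F letters, while Rrm2 and Tk1 did not in these windows. None of the 4 S-phase windows held TTTGAA. The wider lists showed the same letters: of 46 windows matched to 44 of the 53 genes of the G2 and mitosis lists, 67.4% held TTTGAA, 76.1% held CCAAT and 10.9% held the E2F letters. Of 28 windows matched to 23 of the 30 licensing and S-phase genes, 10.7%, 53.6% and 42.9% did. Over all 32851 windows the shares were 17.9%, 37.4% and 5.17%. Matches to TTTGAA lay close to the start of the G2 and mitosis genes. They began in the 50 bases after the start in 34.8% of these windows, against 2.25% of all windows. A match describes the letters and shows no binding.

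**Figure D1:**
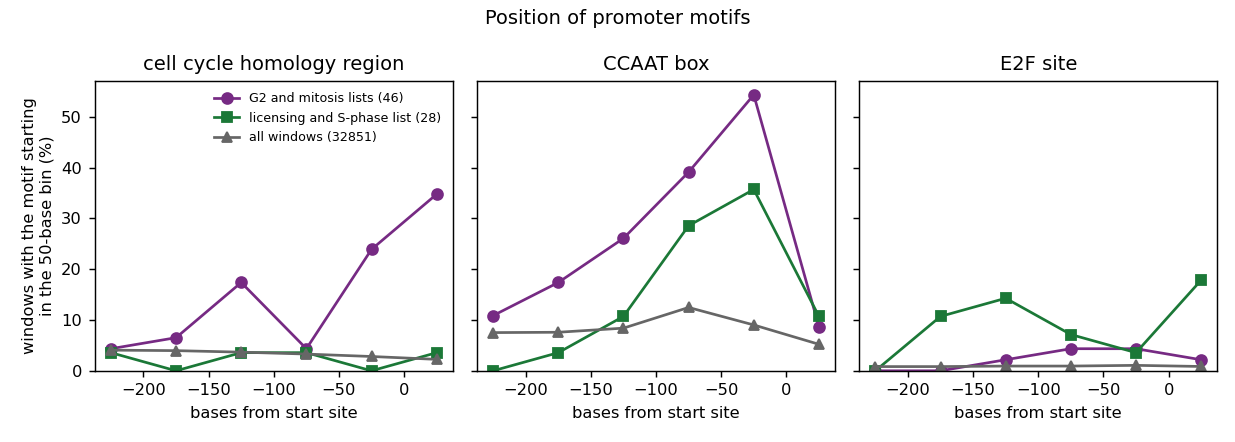
Share of promoter windows, in percent, in which each motif begins in a given 50-base bin, against distance from the start site in bases, for 46 windows of the G2 and mitosis lists, 28 of the licensing and S-phase list and all 32851 windows. The homology region is most frequent in G2 and mitosis windows just after the start (34.8%), and the highest E2F share of any bin is in licensing windows.

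The libraries held 4403 cells (Cdk2-Y15S), 4958 (Cdk2-HET) and 5061 (Cdk2-WT), with 28651691, 32025077 and 30624473 UMIs. Cycling cells were deeper than others: medians ran from 6719 to 7779 UMIs over mitotic and S-phase cells of the 3 libraries, against 4690 to 5306 over non-cycling ones. Levels are UMIs per 1000000 UMIs (CPM) of the summed class, which corrects for this, and shares are also given after each cell was thinned to 4000 UMIs. Intervals are 95% and cover counting error only. Barcodes were shared between libraries 87 times. A shared barcode was carried by 15 cycling cells, and no barcode was a cycling cell in more than 1 library. Scrublet called 5 of the stromal and myoid cycling cells doublets, 4 mitotic and 1 in S phase, all 5 myoid.

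Mki67, which the rule did not read, was high in the chosen cells of each library. This mark of proliferating cells stood at 230, 214 and 162 CPM in cycling stromal cells of Cdk2-Y15S, Cdk2-HET and Cdk2-WT, against 4.98, 3.89 and 5.75 CPM in non-cycling ones. In cycling myoid cells it was 208, 229 and 189 CPM, against 4.51, 4.50 and 8.03.

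Markers of other cells were present at low levels. The Sertoli, germ cell and Leydig markers include genes that the rule itself capped. These are Amh, Sox9, Cldn11, Inha, Ddx4, Dazl, Cyp11a1, Cyp17a1 and Hsd3b1, and their low levels follow from the rule. The 10 Sertoli markers, all detected, summed to 292 to 367 CPM in cycling stromal cells, against 255 to 283 CPM in non-cycling ones, and to 272 to 300 against 232 to 256 CPM in myoid cells. The 8 endothelial markers, all detected, summed to 149 to 263 CPM in cycling stromal cells, highest in Cdk2-Y15S, against 156 to 171 CPM in non-cycling cells. In myoid cells they summed to 58.7 to 90.7 CPM in cycling cells, against 47.2 to 58.0 CPM. The 7 pericyte markers, all detected, summed to 51.6 to 120 CPM in cycling stromal cells, against 52.3 to 62.5 CPM, and to 59.4 to 82.7 CPM in cycling myoid cells, against 75.8 to 83.9 CPM. Of 8 germ cell markers, 7 were detected in cycling stromal cells, with Gfra1 at 0, and their sum was 5.11 to 7.90 CPM. Of 7 Leydig markers, 6 were detected there, with Cyp11b1 at 0. They summed to 99.2, 73.7 and 55.2 CPM in Cdk2-Y15S, Cdk2-HET and Cdk2-WT. Of 10 macrophage markers, 6 were detected in cycling stromal cells, with Csf1r, Cx3cr1, C1qa and Ptprc at 0, and summed to 4.21 to 5.84 CPM. In cycling myoid cells 9 of the 10 were detected, with Cx3cr1 at 0, at 3.18, 6.18 and 69.3 CPM. The part these cells play in the results was not tested.

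Cycling cells made up a smaller share of both classes in Cdk2-Y15S than in the other libraries. In stromal cells they were 11.4% (9.88 to 13.1; 178 of 1559 cells) in Cdk2-Y15S, 17.2% (15.3 to 19.2; 249 of 1451) in Cdk2-HET and 17.8% (15.83 to 19.997; 240 of 1345) in Cdk2-WT. In myoid cells they were 19.4% (16.6 to 22.5; 140 of 722) in Cdk2-Y15S, 27.3% (24.3 to 30.5; 222 of 812) in Cdk2-HET and 29.2% (25.7 to 32.9; 186 of 637) in Cdk2-WT. These intervals count cells of 1 library each, so they do not test the genotypes. Thinning left the order in place, at 11.4%, 16.2% and 18.8% of stromal and 16.7% (13.7 to 20.1), 23.2% (20.03 to 26.6) and 24.9% (21.0 to 29.1) of myoid cells, where the intervals of Cdk2-Y15S and Cdk2-HET met. In cells of 5000 to 7000 UMIs alone, a band chosen after the data were seen, the shares were 7.09% (5.20 to 9.40), 9.42% (7.17 to 12.1) and 14.4% (11.3 to 18.0) of stromal cells and 13.3% (9.51 to 17.8), 15.7% (12.01 to 20.1) and 22.3% (17.2 to 28.1) of myoid cells. In this band the Cdk2-Y15S and Cdk2-HET intervals overlapped in both classes.

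The libraries differed in the make-up of their cycling cells by phase. S-phase cells were 4.62% (3.63 to 5.78) of stromal cells in Cdk2-Y15S and 6.34% (5.14 to 7.72) in Cdk2-HET, against 10.9% (9.24 to 12.6) in Cdk2-WT. Of myoid cells they were 7.76% (5.91 to 9.95) in Cdk2-Y15S and 8.87% (7.002 to 11.04) in Cdk2-HET, against 16.3% (13.5 to 19.4) in Cdk2-WT. Mitotic cells were 6.80%, 10.8% and 6.99% of stromal and 11.6%, 18.5% and 12.9% of myoid cells, so here Cdk2-Y15S and Cdk2-WT lay close together with Cdk2-HET above them. Within the cycling cells, S phase made up 40.4%, 36.9% and 60.8% of stromal and 40.0%, 32.4% and 55.9% of myoid cells. Cells that met both sums were counted as mitotic, and the phase shares depend on this. They were 40 of 106, 74 of 157 and 45 of 94 mitotic stromal cells. Among mitotic myoid cells they were 26 of 84, 68 of 150 and 35 of 82. Collagen differed between the libraries as well, and it is part of the rule: the median sum of the 4 matrix genes in non-cycling stromal cells was 47, 45 and 28 UMIs.

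**Figure D2:**
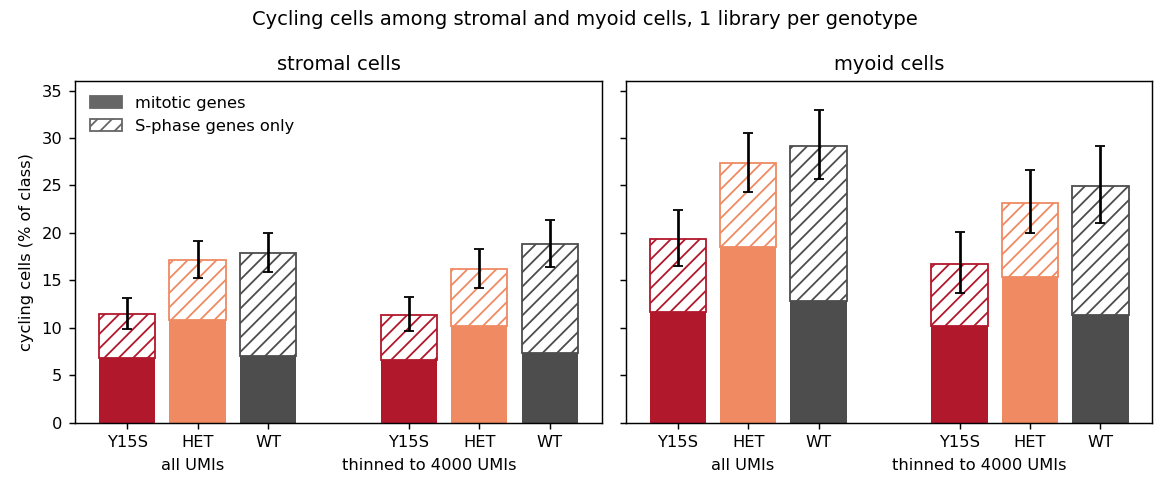
Cycling cells as a percent of stromal and myoid cells in each library, with all UMIs and after thinning to 4000 UMIs. Filled bars are cells of the mitotic sum, hatched bars those of the S-phase sum alone, and error bars are exact 95% intervals of the total. Cdk2-Y15S is lowest in each panel, and the hatched part is tallest in Cdk2-WT.

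Myoid cells were cycling more often than stromal cells in 3 of 3 libraries. The difference averaged 9.84 percentage points (7.97 to 11.4 over the libraries), or 6.14 points (5.34 to 7.01) after thinning. An exact sign-flip permutation test over the 3 libraries, two-sided, gave p = 0.25, the smallest p that 3 libraries allow. The shares and the classes also both come from the rule, so the test could not decide whether the classes differ. Sertoli cells, taken as at least 5 UMIs of the 4 Sertoli genes and at most 2 of the matrix genes, met the same cycle sums more often, in 38.8%, 41.3% and 39.5% of cells, and in 30.2%, 34.1% and 32.9% after thinning. Of 35 cells with at least 20 UMIs of the steroid enzymes, at a median of 7013 UMIs, 1 met the cycle sums (2.86%, 0.0723 to 14.9). The part of free RNA in the cycle calls was not tested.

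Lists not read by the rule were also summed over all stromal and all myoid cells, cycling or not. The 30 licensing and S-phase genes summed to 823 CPM (805 to 843) in stromal cells of Cdk2-Y15S and 1027 CPM (1005 to 1049) in Cdk2-HET, against 1358 CPM (1330 to 1386) in Cdk2-WT. In myoid cells the sums were 902, 1260 and 1547 CPM. The 32 mitosis genes had another order, at 1204, 1634 and 1277 CPM in stromal and 1749, 2205 and 1915 CPM in myoid cells, and the 21 G2 genes stood at 1328, 1846 and 1580 CPM and 1815, 2411 and 2201 CPM. Licensing genes were thus lowest in Cdk2-Y15S and highest in Cdk2-WT, while mitosis and G2 genes were highest in Cdk2-HET.

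Within each library, cycling cells were set against non-cycling cells of the same class. The rule used this contrast, so what follows is description. Of genes with at least 150 UMIs, 3.94% were at least 2-fold higher in cycling stromal cells in all 3 libraries and 0.258% at least 2-fold lower, and 3.66% and 0.124% in myoid cells. All 21 G2 genes passed the 2-fold limit in both classes, and 31 of 32 mitosis genes in stromal and 32 of 32 in myoid cells. Licensing genes passed it in 27 of 30 (stromal) and 21 of 30 (myoid). The list medians, as log2 ratios of cycling over non-cycling cells, were 4.72 and 4.82 for G2, 5.23 and 4.92 for mitosis, and 1.79 and 1.76 for licensing. The medians over all genes were 0.012 and 0.022.

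Among G2 genes, Hmmr, a spindle protein, stood highest. It had 104, 114 and 84.0 CPM in cycling stromal cells of Cdk2-Y15S, Cdk2-HET and Cdk2-WT, against 0.943, 1.09 and 0.766 CPM in non-cycling ones. Ccna2, the cyclin A that partners CDK2 and CDK1, had 313, 317 and 229 CPM in cycling myoid cells, against 6.94, 2.57 and 6.69 CPM. Of the mitosis genes, Aurkb, the kinase of the chromosomal passenger complex, had 205, 211 and 257 CPM in mitotic stromal cells. In S-phase stromal cells, which may hold up to 3 UMIs of the mitotic genes of the rule, it had 73.5, 77.8 and 84.5 CPM. Pttg1, securin, was the mitosis gene with the smallest ratio (1.35 in stromal and 1.66 in myoid cells), since non-cycling cells also held 56.3 to 62.6 CPM of it.

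Licensing genes split by phase. Ccne1, cyclin E1, had 78.7, 94.7 and 107 CPM in S-phase stromal cells and 16.5, 11.7 and 18.5 CPM in mitotic ones, with 3.64, 5.45 and 8.43 CPM in non-cycling cells. Cdc6, which loads the helicase, had 42.8, 35.3 and 29.5 CPM in S-phase stromal cells, against 2.02, 1.25 and 3.64 CPM in non-cycling ones. Mcm6 had 140, 205 and 182 CPM in S-phase stromal cells. In mitotic cells it stood at 24.2, 36.1 and 30.8 CPM, below the 39.5, 38.3 and 44.3 CPM of non-cycling cells. Ung, the uracil glycosylase that follows replication forks, had a log2 ratio over non-cycling stromal cells of 2.19 in S phase and -2.92 in mitosis. Non-cycling stromal cells held only 18.9 CPM in Cdk2-Y15S and 31.6 CPM in Cdk2-WT. The size of the mitotic ratio therefore rests on few UMIs. Slbp, the histone messenger binding protein, was highest in S phase as well, at 407, 458 and 504 CPM against 96.9, 110 and 126 CPM in non-cycling stromal cells.

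**Figure D3:**
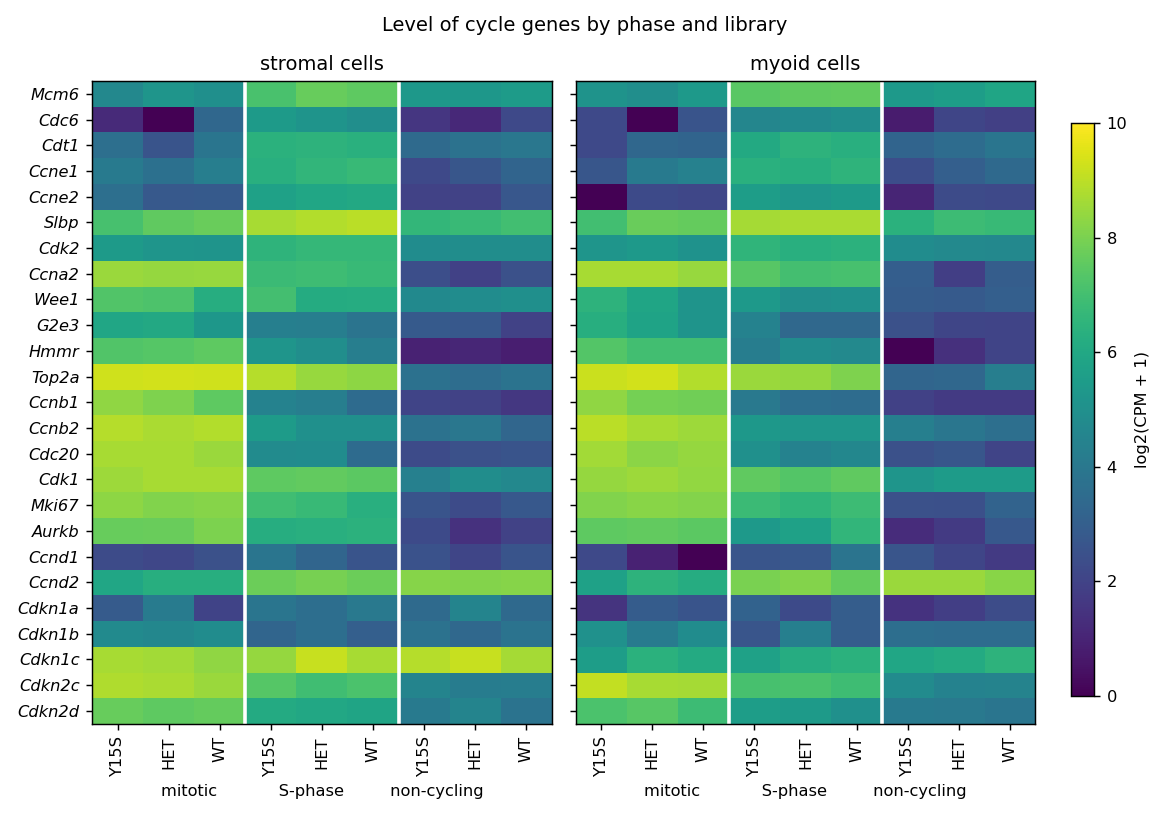
Levels of 25 cycle genes, as log2(CPM + 1) in colour, in mitotic, S-phase and non-cycling stromal and myoid cells, with the libraries Cdk2-Y15S, Cdk2-HET and Cdk2-WT side by side in each block. Cdc6, Cdt1, Ccne1 and Ccne2 are bright in S-phase columns, Hmmr and Cdc20 in mitotic ones, and Ccnd2 is brightest in S-phase and non-cycling columns.

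Cdk2 itself (ENSMUSG00000025358, chromosome 10, 128697939 to 128705031, minus strand, GRCm38) followed S phase. It had 90.6, 99.0 and 101 CPM in S-phase stromal cells of Cdk2-Y15S, Cdk2-HET and Cdk2-WT, 43.3, 36.1 and 35.5 CPM in mitotic ones and 27.9, 29.1 and 29.3 CPM in non-cycling ones. In myoid cells the levels were 93.0, 78.4 and 84.9 CPM in S phase, 35.97, 40.7 and 33.2 CPM in mitosis and 28.1, 25.1 and 24.5 CPM in non-cycling cells. The log2 ratio of Cdk2-Y15S over Cdk2-WT in cycling cells was -0.23 (-0.65 to 0.17) for the stromal class and -0.06 (-0.58 to 0.44) for the myoid class, so both intervals held 0. A change of 1 residue need not alter the level, so these values do not check the labels.

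The D cyclins differed among themselves. Ccnd2, cyclin D2, was lower in cycling cells. It had 59.8, 75.5 and 75.5 CPM in mitotic stromal cells, against 287, 285 and 290 CPM in non-cycling ones, with S-phase cells between at 212, 249 and 217 CPM. In myoid cells it had 52.2, 86.9 and 71.4 CPM in mitosis, 256, 282 and 199 CPM in S phase, and 360, 362 and 294 CPM in non-cycling cells. It was the lowest of 23 control genes in both classes (log2 ratio -1.02 and -1.23, cycling over non-cycling). Ccnd3, cyclin D3, stood nearer 0 (-0.15 and -0.25). Ccnd1 was sparse, at 4.91 to 8.03 CPM in cycling and 3.27 to 4.98 CPM in non-cycling stromal cells. At the other end, E2f8, Cdc25c and Foxm1 had ratios of 5.54, 5.49 and 4.39 in stromal cells and 4.41, 4.87 and 4.75 in myoid cells.

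Inhibitors of the cycle did not share a direction. Of the 21 cycle exit genes, 19 had at least 20 UMIs in stromal and 20 in myoid cells. At least 2-fold higher in cycling cells of all 3 libraries were 2 in stromal and 4 in myoid cells, and none was 2-fold lower. Over all genes with at least 150 UMIs the shares 2-fold higher were 3.94% and 3.66%. Lower by any amount in all 3 libraries were 11 in stromal cells (5 higher) and 5 in myoid cells (9 higher). Over all genes 2467 of 9307 were lower and 2897 higher in stromal cells, and 1808 of 7239 lower and 2224 higher in myoid cells. Cdkn2c, the CDK4 and CDK6 inhibitor p18, had 448, 419 and 362 CPM in mitotic stromal cells and 162, 120 and 143 CPM in S-phase ones, against 22.1, 17.3 and 18.0 CPM in non-cycling cells. In mitotic myoid cells it reached 543, 413 and 405 CPM. Cdkn2d, p19, had 201, 182 and 196 CPM in mitotic stromal cells, against 16.4, 22.1 and 13.0 CPM. Cdkn1c, p57, differed by class more than by phase: cycling stromal cells held 382, 460 and 377 CPM and non-cycling ones 472, 575 and 401 CPM, while cycling myoid cells held 48.8, 79.1 and 76.7 CPM. Btg2, an antiproliferative gene, was lower in cycling cells of each library, at 413, 467 and 532 CPM against 787, 759 and 960 CPM in stromal cells (log2 ratio -0.83), and by -0.60 in myoid cells. Klf4 also stood at -0.83 in stromal cells.

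The medians of tissue gene lists lay near 0, but in some lists the members lower in cycling cells of all 3 libraries outnumbered those higher. The lists of interstitial stroma, smooth muscle, matrix and growth signals had medians between -0.24 and 0.04 in stromal and between -0.20 and -0.02 in myoid cells, and of these lists the only member at least 2-fold apart in all libraries was Tnnt2 in myoid cells. Lower in all 3 libraries were 12 of 20 interstitial stroma genes in stromal cells (3 higher), and 11 of 18 smooth muscle genes (3 higher) and 15 of 28 matrix genes (1 higher) in myoid cells. Over all genes 2467 of 9307 were lower and 2897 higher in stromal cells, and 1808 of 7239 lower and 2224 higher in myoid cells. Tnnt2, a troponin of the thin filament, had 129, 64.3 and 36.1 CPM in cycling myoid cells, against 274, 152 and 105 CPM in non-cycling ones. Ogn, osteoglycin, had the lowest stromal ratio (-1.33): 61.1, 51.2 and 41.6 CPM in mitotic stromal cells and 142, 216 and 207 CPM in S-phase ones, against 281, 308 and 278 CPM in non-cycling cells. Mfap4, an elastic fibre protein, stood at -0.66 and -0.57. Fbln1, the matrix protein fibulin 1, ran the other way, at 0.43 and 0.86, with 101, 122 and 109 CPM in cycling myoid cells against 48.9, 68.1 and 67.4 CPM. Vcan, versican, stood at 0.37 and 0.32. Desmin (Des) was lower in cycling cells of both classes, at -0.55 and -0.65, and Smtn, smoothelin, was higher, at 0.88 and 0.50. The smooth muscle sum was itself used to choose the class.

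Some genes at least 2-fold lower in cycling cells of every library lay outside the cycle lists, and these were chosen after their values were seen. Aldoa, the glycolytic aldolase, had mean log2 ratios of -1.499 in stromal and -1.38 in myoid cells. The histone demethylases Kdm7a and Kdm5b had -1.56 and -1.38 in stromal and -2.02 and -1.17 in myoid cells. For these 3 genes the ratio was below 0 for mitotic cells alone and for S-phase cells alone. Atf3, a stress-induced transcription factor, was the lowest immediate early gene in both classes (-1.07 and -1.14), and of 15 such genes 10 were lower in cycling stromal cells of all 3 libraries and none higher. In myoid cells 6 of 14 were lower and 3 higher. Handling during dissociation was not measured, so its part was not tested.

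**Figure D4:**
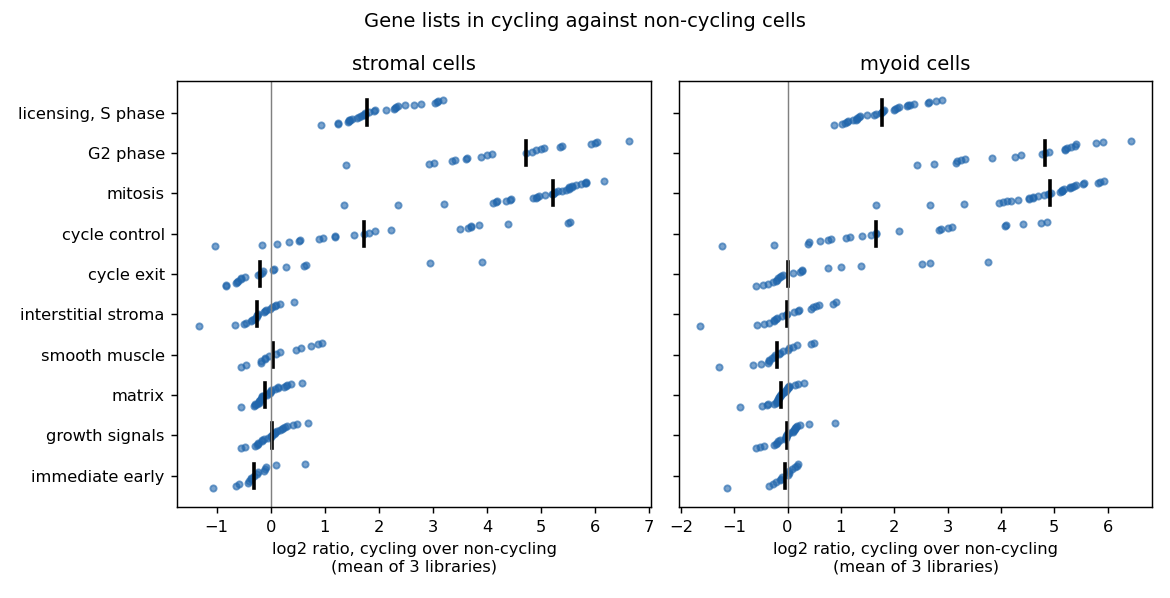
Log2 ratio of cycling over non-cycling cells, averaged over the 3 libraries, for each member of 10 gene lists with at least 20 UMIs (points) and the list median (bars), in stromal and myoid cells. Cycle lists lie to the right of 0, with medians of 1.76 to 5.23, and tissue lists lie around 0.

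Between genotypes, genes of licensing and S phase were lower, and genes of G2 and mitosis higher, in the cycling cells of Cdk2-Y15S than in those of Cdk2-WT. Of genes with at least 50 UMIs over both libraries, 91 of 6583 were at least 2-fold apart in stromal cells (1.38%; 0.911% higher and 0.471% lower) and 98 of 5474 in myoid cells (1.79%; 1.04% higher and 0.749% lower). The 30 licensing genes had a median log2 ratio of -0.42 in stromal cells, with 30 of 30 below 0 and 13 whose own interval lay below 0. Over all genes with at least 20 UMIs 4348 of 9276 were below 0 and 655 had such an interval. In myoid cells the licensing median was -0.45, with 26 of 30 below 0, against 3891 of 8379 over all genes. The 32 mitosis genes stood at 0.52 and 0.46, with 29 above 0 in each class, and the 21 G2 genes at 0.31 and 0.45, with 21 and 19 above 0. The medians over all genes were 0.03 in both classes, with 4928 and 4488 genes above 0. Since the share of S-phase cells among the cycling cells differed between these libraries (40.4% against 60.8% in stromal cells), the lists were also compared within a phase. In S-phase cells alone the licensing medians were -0.14 in both classes, and in mitotic cells alone they were -0.28 in stromal and -0.31 in myoid cells. Mitosis medians were 0.10 and 0.29 in mitotic cells, and 0.37 and 0.06 in S-phase cells. The G2 medians were 0.02 and 0.25 in mitotic cells, and 0.07 and 0.02 in S-phase cells. Non-cycling cells also had lower licensing genes, with medians of -0.66 in stromal cells (30 of 30 below 0) and -0.76 in myoid cells (27 of 28 below 0). The G2 and mitosis lists were not higher in non-cycling cells. There the G2 medians were -0.12 in stromal (13 of 18 below 0) and -0.52 in myoid cells (10 of 12 below 0). The mitosis medians were -0.04 (12 of 21 below 0) and -0.48 (13 of 16 below 0). Over all genes 5625 of 11715 and 4778 of 9975 were below 0 in these non-cycling cells. Markers of other cells also differed there. Macrophage markers with enough UMIs stood at a median of 2.68 in non-cycling stromal cells (5 of 6 at least 2-fold higher) and -5.08 in non-cycling myoid cells (6 of 6 at least 2-fold lower), and Sertoli markers at -0.24 and -0.60. Few cells may carry the macrophage medians. For Lyz2, 1 cell held 118 of 131 UMIs in non-cycling stromal cells of Cdk2-Y15S. In non-cycling myoid cells of Cdk2-WT, 1 cell held 20 of 22. Endothelial markers moved with this comparison in cycling stromal cells: the 4 with at least 20 UMIs were all above 0, among them Kdr with 27 UMIs in Cdk2-Y15S against 2 in Cdk2-WT, and the part of these markers in the result was not tested.

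Cdk2-HET over Cdk2-WT, which shares the Cdk2-WT library, gave 75 of 7068 genes at least 2-fold apart in stromal cells (1.06%; 0.566% higher and 0.495% lower) and 66 of 6366 in myoid cells (1.04%; 0.597% higher and 0.44% lower). In non-cycling cells, genes at least 2-fold apart made up 2.02% (stromal) and 1.62% (myoid) for Cdk2-Y15S over Cdk2-WT, and 1.17% and 1.15% for Cdk2-HET over Cdk2-WT. Its list medians were -0.44 and -0.35 for licensing, 0.41 and 0.30 for G2, and 0.48 and 0.37 for mitosis. In S-phase cells alone the licensing medians were -0.08 and -0.06 and the mitosis medians 0.26 and -0.06, and in mitotic cells alone the licensing medians were -0.16 and -0.03 and the mitosis medians 0.04 and 0.12.

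Pcna, the clamp of the replication fork, was the licensing gene furthest apart. It had 18.2 CPM (25 UMIs) in cycling stromal cells of Cdk2-Y15S and 46.3 CPM in Cdk2-HET, against 59.5 CPM (97 UMIs) in Cdk2-WT, a log2 ratio of -1.68 (-2.40 to -1.06) for Cdk2-Y15S over Cdk2-WT. In S-phase stromal cells alone it had 39.3, 83.4 and 86.5 CPM, and in S-phase myoid cells 46.5, 54.1 and 111 CPM. The gap was also present in non-cycling cells, at 6.20, 16.8 and 17.4 CPM in stromal and 5.90, 21.8 and 21.0 CPM in myoid cells. Pcna has near-identical copies in the genome, and the counting of reads shared with them was not stated, so its values are uncertain. Ung had a ratio of -1.28 in stromal cells. Ccne1 stood at 43.1 and 42.6 CPM in Cdk2-Y15S and Cdk2-HET, against 71.7 CPM in Cdk2-WT, in cycling stromal cells.

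Wee1, Ccnb1 and G2e3 had the highest ratio of Cdk2-Y15S over Cdk2-WT in their lists in cycling stromal cells. Wee1, the kinase that phosphorylates the inhibitory tyrosine of CDK1 and CDK2, had 142, 118 and 72.4 CPM in cycling stromal cells of Cdk2-Y15S, Cdk2-HET and Cdk2-WT, a log2 ratio of 0.97 (0.64 to 1.32) for Cdk2-Y15S over Cdk2-WT. In cycling myoid cells it had 67.9, 48.8 and 33.2 CPM, a ratio of 1.03 (0.46 to 1.62). Within mitotic cells alone it had 154, 146 and 74.0 CPM in stromal and 86.3, 58.3 and 34.9 CPM in myoid cells. In non-cycling cells the libraries lay close, at 25.9, 28.0 and 30.5 CPM in stromal and 6.60, 6.10 and 7.14 CPM in myoid cells. Ccnb1, cyclin B1, had 323, 264 and 183 CPM in mitotic stromal cells and 320, 238 and 228 CPM in mitotic myoid cells. G2e3, a ubiquitin ligase named for its G2 and M expression, had 59.8, 63.8 and 38.5 CPM in mitotic stromal and 75.5, 55.5 and 34.9 CPM in mitotic myoid cells. These genes were picked by this ratio in all cycling stromal cells, mitotic ones included. Their stromal values in mitotic cells are thus no separate support. Within mitotic cells the interval of the ratio lay above 0 in both classes for Wee1 and Ccnb1, and for G2e3 in myoid cells. It held 0 for G2e3 in stromal cells (0.62, -0.09 to 1.40). Aurkb did not share this and stood at 205 CPM in mitotic stromal cells of Cdk2-Y15S against 257 CPM in Cdk2-WT.

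**Figure D5:**
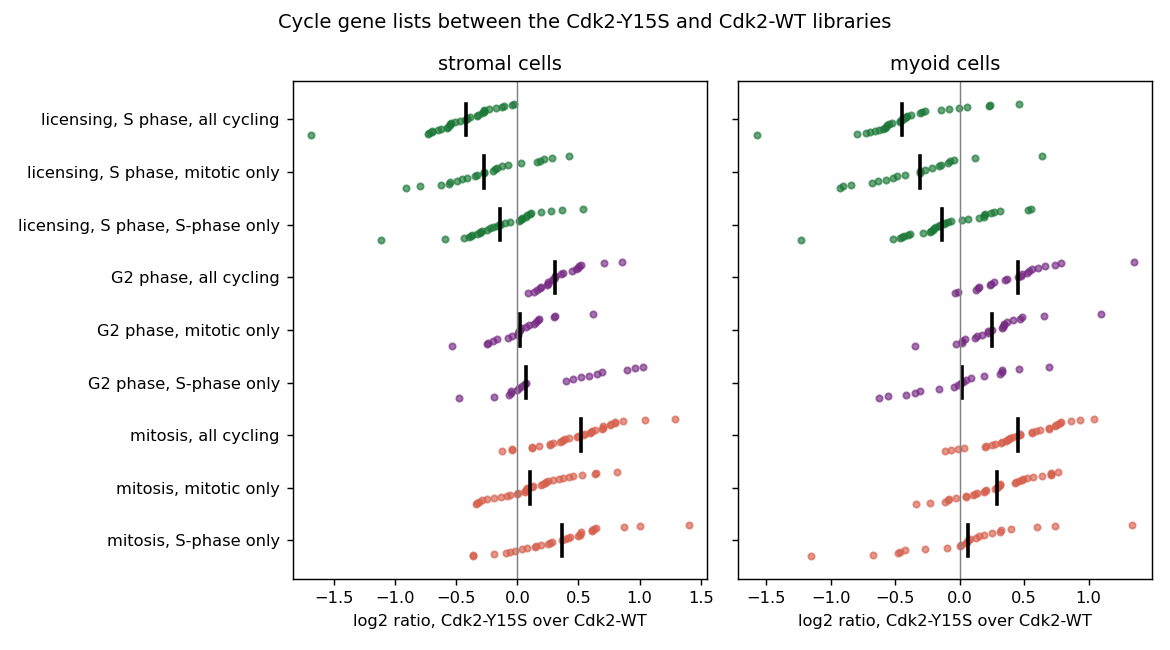
Log2 ratio of Cdk2-Y15S over Cdk2-WT for members of the licensing, G2 and mitosis lists with at least 20 UMIs (points) and list medians (bars), over all cycling cells, mitotic cells alone and S-phase cells alone. Over all cycling cells licensing medians lie at -0.42 and -0.45 and mitosis medians at 0.52 and 0.46, and within a phase the licensing medians of S-phase cells lie at -0.14.

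Genes of the tissue differed between the libraries too. In cycling myoid cells the 16 smooth muscle genes with enough UMIs of 20 were all above 0, with a median of 0.28, against 4488 of 8379 over all genes. Tnnt2 stood highest, at 129, 64.3 and 36.1 CPM (ratio 1.83, 1.35 to 2.35), and Cnn1, calponin, was at 50.9, 34.0 and 19.2 CPM (1.40). In non-cycling myoid cells the list median was 0.17, also above 0. Tcf21, a transcription factor of the testis stroma, had 453, 469 and 233 CPM in cycling myoid cells, and 428, 410 and 222 CPM in non-cycling ones. The interstitial stroma list as a whole was not higher in myoid cells. Its median was -0.11 in cycling myoid cells (7 above 0 and 10 below) and -0.01 in non-cycling ones (8 above and 10 below). In cycling stromal cells it was 0.18 (13 above and 6 below). The 29 matrix genes had medians of 0.16 in stromal and 0.19 in myoid cells, with Col15a1 at 50.4, 26.9 and 12.3 CPM (2.01) and Postn, periostin, at 46.0, 15.8 and 14.1 CPM (1.69) in cycling stromal cells. Lum, lumican, was higher in Cdk2-Y15S in cycling stromal cells, at 104, 79.0 and 47.8 CPM. In cycling myoid cells it stood at 5.30, 24.1 and 16.2 CPM, carried by 10 or fewer cells in each library, with 15 of the 39 UMIs of Cdk2-HET in 1 cell.

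Klf4 and Klf2, factors of quiescence, were lower in Cdk2-Y15S, but the cycle exit list as a whole was not. Its median ratio of Cdk2-Y15S over Cdk2-WT in cycling stromal cells was -0.01 (9 genes above 0 and 10 below). In cycling myoid cells it was 0.24 (11 above and 7 below). Klf4 had 618, 746 and 1057 CPM in cycling stromal cells and 119, 179 and 306 CPM in cycling myoid cells, with ratios of -0.77 (-0.89 to -0.65) and -1.36 (-1.68 to -1.06). Klf2 had 754, 962 and 1107 CPM and 144, 210 and 324 CPM. In non-cycling cells the Klf4 ratios were -0.52 and -1.13. The immediate early list stood at -0.27 in cycling myoid cells (12 of 13 below 0) and at -0.11 in stromal cells, with Fos at 845, 1261 and 1639 CPM in cycling myoid cells, and with -0.52 in non-cycling myoid cells. Both Klf genes respond to dissociation as immediate early genes do, and the part of tissue handling in them was not tested.

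Several large ratios belonged to genes with near-identical copies. Rpl29, a ribosomal protein gene, had 496 and 518 CPM in cycling stromal and myoid cells of Cdk2-Y15S, against 25.1 and 35.4 CPM in Cdk2-WT. Rpl21 had 46.3 and 51.9 CPM in those of Cdk2-HET, against 1050 and 1194 CPM in Cdk2-WT. Both gaps were as large in non-cycling cells, with log2 ratios of 4.17 and 4.25 for Rpl29 in Cdk2-Y15S and -4.61 and -4.50 for Rpl21 in Cdk2-HET. Ribosomal protein genes have many near-identical copies in the genome, so these values are uncertain. The histone Hist1h2ak had 1.58 CPM (3 UMIs) and 3.71 CPM (6 UMIs) in cycling stromal and myoid cells of Cdk2-HET, against 88.3 and 81.9 CPM in Cdk2-WT, ratios of -5.59 and -4.35. Hist1h2bc, another histone whose copies are alike, had 280 and 206 CPM in Cdk2-Y15S against 49.7 and 30.2 CPM in Cdk2-WT. Some genes rested on 1 cell: 47 of the 48 UMIs of the metal transporter Slc39a8 in cycling stromal cells of Cdk2-Y15S, and 50 of 50 UMIs of Lyz2, lysozyme of macrophages, in cycling myoid cells of Cdk2-WT. Other genes ran the same way in non-cycling cells. Ifi27l2a, an interferon-induced gene, had 102 CPM in cycling stromal cells of Cdk2-Y15S against 29.4 CPM in Cdk2-WT, and ratios of 1.79 in cycling and 1.57 in non-cycling cells. Prss35, a serine protease, had 61.5 CPM in cycling myoid cells of Cdk2-Y15S against 212 CPM in Cdk2-WT, and ratios of -1.78 and -1.35. Igfbp3, a binding protein of insulin-like growth factors, had 4.24 CPM (4 UMIs) against 70.1 CPM (95 UMIs in 24 cells, 24 of them in 1 cell) in cycling myoid cells, and ratios of -3.88 and -1.56.

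Of the 555 S-phase cells 124 lay at their limit. Of the 705 mitotic cells 27 lay at the mitotic limit without meeting the S-phase sum. Those at the mitotic limit that met both sums were not counted, so the numbers are not alike. At a mitotic sum of 4, with an S-phase sum under 3, lay 27 cells with 114 CPM of Mki67, and at a sum of 3, just outside, 41 cells with 61.0 CPM. At an S-phase sum of 3, with a mitotic sum under 4, lay 124 cells with 169 CPM of Mcm6, and at a sum of 2, just outside, 212 cells with 129 CPM. The Sertoli limit left out 185 cells that met the collagen and cycle sums, at a median of 11995 UMIs. The collagen limit left out 15 cells with 3 or 4 UMIs of the matrix genes, and 88 cycling cells had a sum of 5 to 9: 20 in Cdk2-Y15S, 18 in Cdk2-HET and 50 in Cdk2-WT. Around the muscle limits, 10 cycling cells had a sum of 8, 45 had 5 to 7 and 23 had 4.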

How the data were processed

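Testis cells of 3 genotypes were dissociated with trypsin/EDTA and DNase I, and their polyadenylated RNA was read with the 10x Genomics 3′ v2 kit, per the labels' protocols. The deposited values are raw counts of UMIs for 27998 genes in 14422 cells. Cell Ranger 2.1.0, Seurat and mm10 are named per the submitters' processing notes, with no settings; how cell barcodes were picked was not stated. The members and gene lists were chosen with earlier results of these data known.

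All 14422 cells were kept. UMIs were summed over each class and library and divided by the summed total. Ratios used 0.5 UMI added to each sum, with conditional exact binomial intervals. Shares have Clopper-Pearson intervals, and summed levels exact Poisson ones, all at 95% and for counting error only. Between genotypes, with 1 library each, a gene was called at 2-fold with at least 50 UMIs, and list members needed 20 UMIs. Cells were thinned to 4000 UMIs with a fixed seed, leaving out shallower cells, and the rule was applied anew to the thinned counts. Scrublet, run through scanpy, marked doublets, which were left out as an alternative only. Named genes were the extremes of each list and of each genotype ratio, by a written rule, besides the rule's own genes and Cdk2, and genes that fill a role in the cycle were added after their values were seen. Alternatives changed depth, thresholds, doublets, cell filters, pseudocount, count minimum and weighting. The ratios were tested on simulated Poisson counts, drawn independently for each gene. This leaves out the clumping of UMIs in single cells, so it does not check the intervals for such genes. Python 3.11.15, numpy 2.4.6, scipy 1.17.1, pandas 2.3.3, scanpy 1.11.5 and matplotlib 3.10.9 were used.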

Additional observations from a re-analysis of the deposited data

Results flagged for a closer look

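Hmox1, the heme oxygenase induced by oxidative stress, was picked out because its ratio of Cdk2-Y15S over Cdk2-WT had opposite signs in cycling and non-cycling stromal cells. The log2 ratio was -1.40 in cycling stromal cells, with 22 UMIs in Cdk2-Y15S and 70 in Cdk2-WT, where 46 of the 70 lay in 1 cell. It was 2.30 in non-cycling stromal cells, with 621 UMIs in 136 cells of Cdk2-Y15S and 88 UMIs in 68 cells of Cdk2-WT, and up to 139 and 12 UMIs in 1 cell. Within the cycling stromal cells the ratio was 3.09 in mitosis (15 UMIs in Cdk2-Y15S and 1 in Cdk2-WT) and -2.46 in S phase (7 and 69 UMIs). In myoid cells the signs were the other way round, at 0.43 (-0.74 to 1.58) in cycling and -1.40 in non-cycling cells, where 67 of the 89 UMIs of Cdk2-WT lay in 1 cell. The difference was not tested.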

How the results depend on the processing

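Cdk2-Y15S had the lowest cycling share in both classes under all 7 alternatives for the shares. Cdk2-HET lay below Cdk2-WT except in stromal cells under stricter cycle sums. In the order Cdk2-Y15S, Cdk2-HET, Cdk2-WT, the stromal shares were 9.04%, 14.2% and 13.1% with stricter sums (6 mitotic or 5 S-phase UMIs), 13.9%, 20.7% and 22.0% with looser ones (3 or 2), and 7.09%, 9.42% and 14.4% in cells of 5000 to 7000 UMIs. The myoid shares were 15.1%, 21.9% and 22.1% with stricter sums, 22.9%, 32.0% and 33.6% with looser ones, 28.0%, 35.7% and 57.6% with a collagen sum of at least 20, and 13.3%, 15.7% and 22.3% in that depth band. Thinned, they were 23.2% in Cdk2-HET and 24.9% in Cdk2-WT.

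Genes at least 2-fold apart between Cdk2-Y15S and Cdk2-WT numbered 3362 in stromal and 3622 in myoid cells with no filter on low counts, and 13 and 13 with at least 200 UMIs. For Cdk2-HET they numbered 3198 and 3115, and 8 and 7. The number of genes tested changes with the filter and was not recorded for these 2 settings. These counts therefore cannot be compared with each other or with the shares given above. List medians between genotypes depended on the mix of phases. With mitotic and S-phase cells weighted equally, stromal medians of Cdk2-Y15S over Cdk2-WT were -0.17 (licensing), 0.082 (G2) and 0.17 (mitosis). In mitotic cells alone G2 stood at 0.024 and mitosis at 0.10, and in S-phase cells alone licensing stood at -0.14 and G2 at 0.067. Myoid medians in S-phase cells alone were -0.14 (licensing) and 0.016 (G2). For Cdk2-HET in stromal cells, equal weights gave -0.079 for licensing and 0.10 for mitosis, S-phase cells -0.083 and 0.26, and mitotic cells 0.035 for mitosis. In its myoid cells the G2 median was 0.0036 with equal weights, 0.063 in mitotic cells and, reversed, -0.17 in S-phase cells. The immediate early median of Cdk2-Y15S over Cdk2-WT in stromal cells reversed to 0.18 in S-phase cells alone. The single-phase and depth-band alternatives were chosen after seeing the data.

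Of cycling over non-cycling medians, licensing stood at 1.56 (stromal) and 1.37 (myoid) after thinning, stromal G2 at 4.37 after thinning and 4.64 as a mean per cell, and stromal smooth muscle reversed to -0.074 after thinning. Apart from construction (fewer UMIs, cells or genes), the cause was not tested. Of all values recomputed, 374 stayed within a wide allowance: the counting interval of a share or of a list's middle gene, the spread over libraries, or 1.5 times a count. Outside it 69 moved and 3 reversed. The allowance hides large shifts for Cdk2-HET over Cdk2-WT: stromal G2 stood at 0.015 in mitotic cells, myoid licensing at -0.033 in mitotic cells, and myoid mitosis turned sign to -0.055 in S-phase cells. No replicated comparison of genotypes was possible because each genotype has 1 library. Only the comparison of classes and that of cycling with non-cycling cells were paired within libraries.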
